A study of Homo sapiens with 26 samples.

Results

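The knockdown of TP63 in KYSE150, a cell line from a human esophageal squamous cell carcinoma (ESCC), was profiled by RNA-seq in 4 of the 26 libraries of the series. The 4 libraries were all those that the labels give as KYSE150 with a control siRNA (siCont, n = 2) or an siRNA against TP63 (siTP63, n = 2), and both groups were harvested 48 hours after transfection. Of the 26485 genes in the table, 12335 had a mean normalised read count of at least 10 over the 4 libraries and were tested. KYSE180 and TE6, 2 further ESCC lines given an siTP63 in the same study (2 siCont and 2 siTP63 libraries each), served for comparison. The TE6 filter, fit and contrasts also held 2 TE6 libraries given an siRNA against BRDT (siBRDT). The 3 control libraries of a KYSE150 experiment with BRDT overexpression were used for baseline levels only. Each siTP63 group is 1 established line under a transient, partial knockdown. The labels do not say whether libraries 1 and 2 of a group came from separate cultures, so p-values measure only the spread between these libraries.

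p63, encoded by TP63, is a transcription factor of the p53 family that keeps the basal layer of stratified epithelia, such as the esophageal lining, in a proliferative and adherent state. Its main form in this layer lacks the full transactivation domain and is known to bind enhancers of basal keratins, hemidesmosome genes and cell cycle genes. In squamous carcinomas TP63 is often amplified and highly expressed, and KRT14, KRT5 and FAT2 are among the genes it is known to activate.

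The siRNAs named by the study are shown because they are its means of lowering TP63 and because each can also pair with other transcripts through its seed. The listed strand has the sense of the mRNA, and the capitals mark bases 12 to 18, which pair with the seed (bases 2 to 8) of the antisense strand. The sources used here do not say which of the TP63 siRNAs was used for these libraries.
TP63 #8: cgacagucuugUACAAUUu
TP63 #5: caucaugucugGACUAUUu
Non-targeting siRNA #5: ugguuuacaugUCGACUAa
All 19 bases of TP63 #8 matched 12 of the 14 annotated TP63 transcripts, in coding sequence of exon 7 of transcript TP63-201 at chr3:189867849-189867867 (hg38, plus strand). TP63 #5 matched 5 of the 14, in coding sequence of exon 13 at chr3:189890812-189890830, so transcripts that end before this exon lack its site. The non-targeting sequence matched 0 of the 14. The TP63 gene itself spans chr3:189631389-189897276.

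Each library held 11564993 to 16151651 reads assigned to genes, and 15314 to 16018 genes had at least 1 read. The siCont libraries differed from each other slightly less than the group means did, and the siTP63 libraries more. The median absolute difference between libraries of 1 group, on the log2 scale over the 12335 tested genes, was 0.30 in siCont and 0.38 in siTP63. Between the group means it was 0.32. The first 2 values compare single libraries and the last compares means of 2, so they are not like for like. The within-group difference followed transcript GC content over the 12089 genes with an annotated transcript. Pearson's r over genes was -0.45 for siCont 2 minus siCont 1 and 0.51 for siTP63 2 minus siTP63 1. It was 0.06 for siTP63 minus siCont (genes within a library are not independent, and no p is given). siCont 1 and siTP63 2 therefore stood to one side for GC-rich genes, and siCont 2 and siTP63 1 to the other. The part of this split in any single result was not tested. Some of the gene lists that follow it, wholly or in order within groups, are named below.

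**Figure D1:**
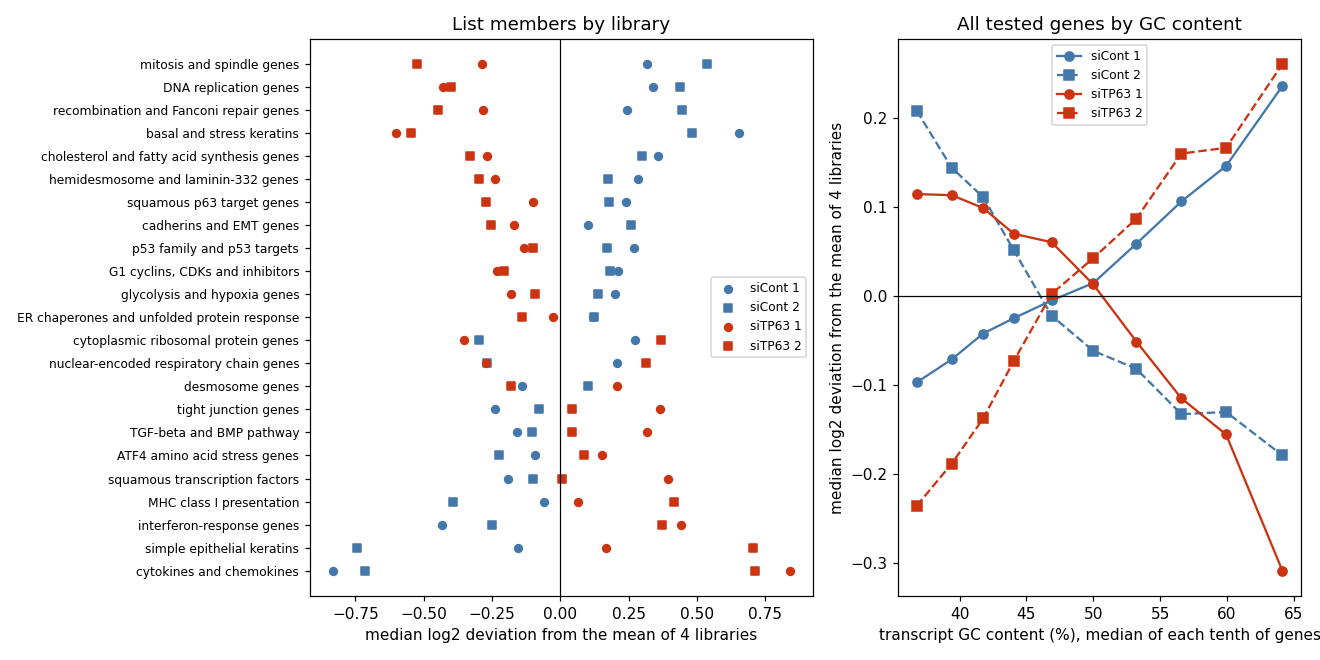
Left, the median log2 deviation of each gene list from the mean of the 4 libraries, 1 point per library. Right, the same deviation for all tested genes against transcript GC content (%), 1 point per bin of genes of like GC content. The DNA replication list lies above 0 in both siCont libraries (0.34 and 0.44) and below 0 in both siTP63 libraries (-0.43 and -0.40), while the ribosomal protein list lies above 0 in siCont 1 and siTP63 2 (0.27 and 0.37) and below 0 in the others.

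TP63 transcript was lower under siTP63, which checks the labels. Its normalised read count was 695 and 729 in siCont and 170.4 and 114 in siTP63, a log2 fold change of -2.34 ± 0.26 (SE, n = 2 per group; limma adjusted p = 0.0818). The groups did not overlap, and the mean siCont value was 5-fold the siTP63 mean. KRT14, the basal keratin partner of KRT5 and a standard p63 target, was at 244 and 146 in siCont and at 19.1 and 17.3 in siTP63 (-3.31 ± 0.35, limma adjusted p = 0.0818). The siTP63 values of KRT14 lay close together, well below either siCont value.

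Markers of other cell types were nearly absent. Of 10 leukocyte markers, 6 had at most 3 reads in every library, as did 7 of 10 fibroblast markers, 6 of 8 endothelial markers and 11 of 13 glandular markers. The summed leukocyte markers were at 532 and 452 in siCont and 448 and 476 in siTP63, and the fibroblast sum was at 83.2 and 89.5 against 131 and 114. The endothelial sum was higher in siTP63 (29.7 and 12.96 in siCont, 154 and 94.5 in siTP63) through CDH5, the vascular cadherin, and the glandular sum (102 and 100.1, then 268 and 346) through MUC1, a membrane mucin, and GATA6. The part of these markers in other results was not tested.

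With 2 libraries per group no gene passed the main test. With the limits of a limma adjusted p below 0.05 and 0.5 for the size of the log2 fold change, 0 of 12335 genes (0%) were called, the lowest adjusted p being 0.08. edgeR, run on the recovered reads, also called 0. At an unadjusted p under 0.05, limma gave 2194 genes (17.8%), 1125 lower and 1069 higher in siTP63, and edgeR gave 2187. DESeq2, run on the same reads as an alternative, called 259 genes lower (2.1%) and 202 higher (1.64%). The exact permutation test of a single gene cannot go below p = 0.333 here (two-sided). Leaving out any of the 4 libraries, with the lone sample assumed to vary like the other group, gave 77 to 177 limma calls lower and 108 to 182 higher, so the count of 0 depends on each of the 4.

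Genes were therefore described by whether they moved the same way in all 4 pairs of a siTP63 and a siCont library, and by a mean of 0.5 or more on the log2 scale. By that description 1696 genes (13.7%) were lower and 1686 (13.7%) higher in siTP63, of which 436 and 577 differed at least 2-fold. All 259 and all 202 genes called by DESeq2 were among them. Below, "lower" and "higher" in all 4 pairs have this meaning, and a list's count is to be read against 13.7% in each direction and against the median log2 fold change of all tested genes, -0.01. In bulk RNA, fewer cells of a type and less RNA per cell cannot be told apart.

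**Figure D2:**
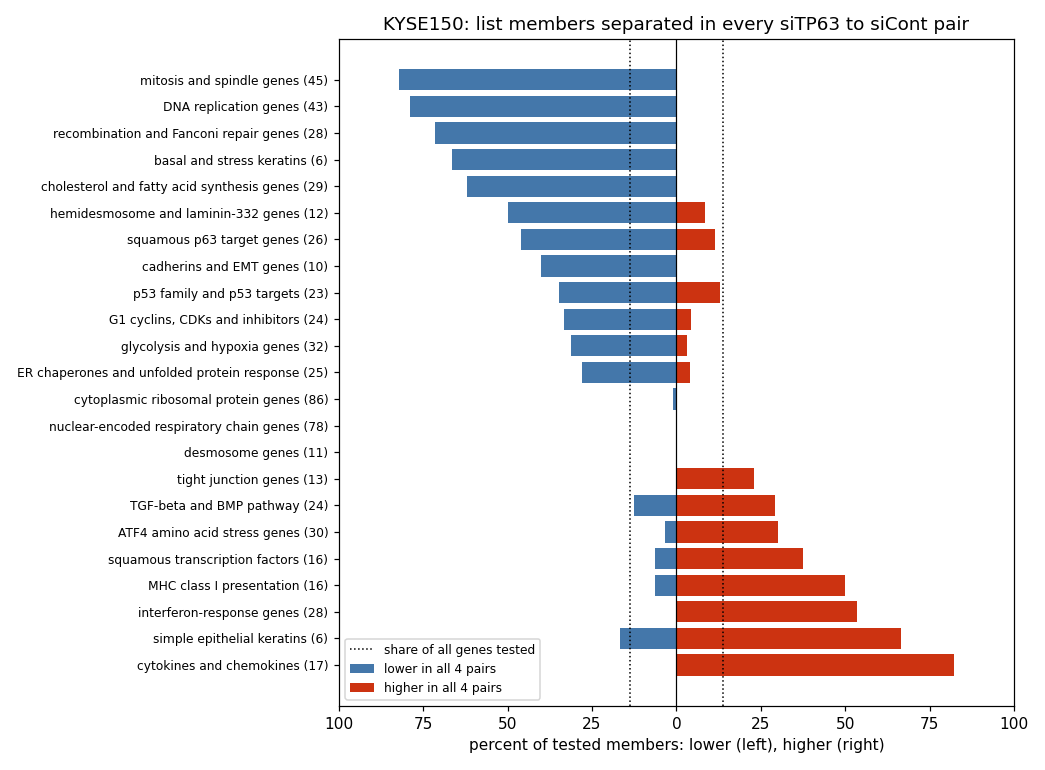
Percent of the tested members of each gene list (number tested in brackets) that were lower (left bars) or higher (right bars) in all 4 siTP63 to siCont pairs in KYSE150. Dotted lines mark the 13.7% of all tested genes; mitosis, DNA replication and recombination lists reach 82.2%, 79.1% and 71.4% on the lower side, and the desmosome and respiratory chain lists have no member on either side.

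Among the 26 tested genes of the 30 listed as squamous p63 targets, 12 were lower in all 4 pairs and 3 higher, with a median log2 fold change of -0.27, and DESeq2 called 8 lower and 0 higher. KRT5, the type II keratin of basal cells, was at 12531 and 13423 in siCont and 5814 and 4791 in siTP63 (-1.30 ± 0.24, limma adjusted p = 0.115, DESeq2 adjusted p = 0.000803). PTHLH, the parathyroid hormone-related peptide, was at 259.9 and 320.4 against 135 and 137 (-1.08 ± 0.23). S100A2, a calcium-binding protein of basal keratinocytes, was at 22743 and 13526 against 3056 and 6461 (-1.98). These 3 genes had no overlap between groups, and S100A2 spread most within each group. FAT2, an atypical cadherin, was at 1016 and 715 in siCont and 535 and 555 in siTP63 (-0.64 ± 0.24, DESeq2 adjusted p = 0.285), lower in all pairs but by less than the basal keratins. HAS3, a hyaluronan synthase, was at 166 and 238 against 58.2 and 43.9 (-1.96 ± 0.31), and SOX15, a SOX-family transcription factor of stratified epithelia, was at 2000.2 and 1958 against 621 and 753 (-1.53 ± 0.20). NRG1, a ligand of ERBB receptors, went from 1926 and 1670.2 to 765 and 885 (-1.12). On the other side, the targets TRIM29, CSTA and TFAP2C were higher in all 4 pairs.

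**Figure D3:**
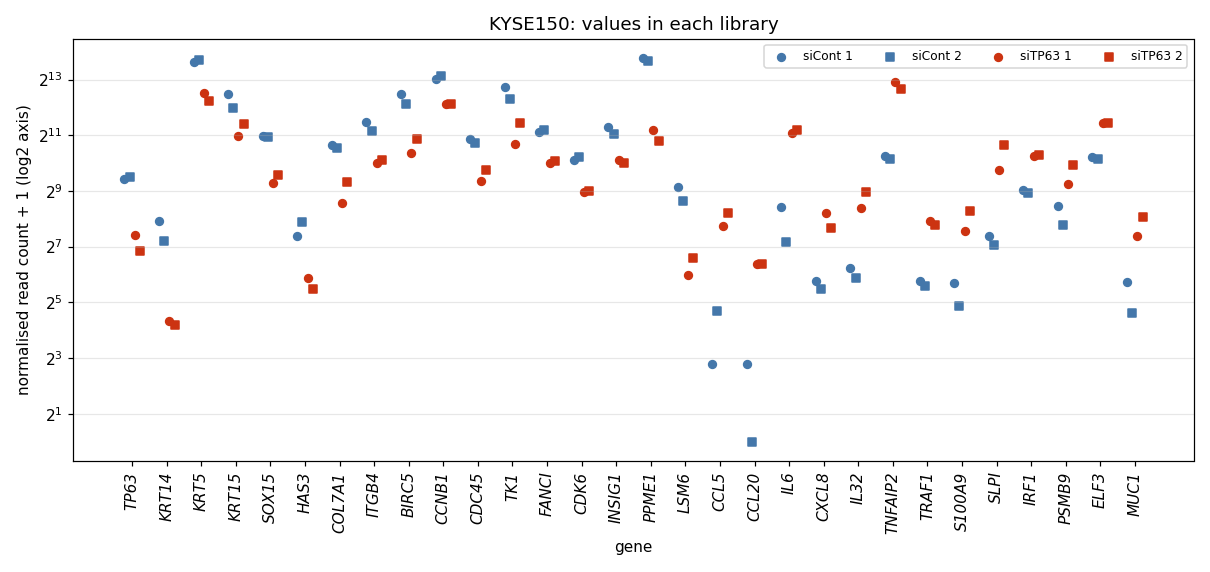
Normalised read count plus 1 on a log2 axis for genes named in the text, 1 point per KYSE150 library. The siCont and siTP63 libraries separate for TP63 (695 and 729 against 170.4 and 114) and for IL6 (339 and 144 against 2178 and 2339.7).

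Most of the tested basal keratins were lower and simple keratins were mixed. Of 6 tested basal and stress keratins, 4 were lower in all 4 pairs and 0 higher (median -1.13, or -0.70 with no filter on low values). KRT15, a keratin of basal progenitors, was at 5702 and 4002 against 1994 and 2696 (-1.04), and KRT6A, a stress keratin, at 165 and 240.3 against 107 and 66.5 (-1.23). KRT17 was at 1751 and 839 in siCont and 663 and 1356 in siTP63, and its groups overlapped. The stress keratin KRT16 was at 202 and 87.2 against 107 and 210.3 (0.18), also with overlap. Of 6 tested genes on the simple epithelial keratin list, 4 were higher in all 4 pairs (KRT7, KRT80, KRT81 and KRT86) and 1, KRT8, was lower. The median was 1.02, but the list mixes types, KRT86 being a hair keratin. It therefore does not describe KRT7, KRT8 and KRT18 as a group. By library the list deviated by -0.15 and -0.75 in siCont and 0.17 and 0.71 in siTP63. Within groups siCont 1 and siTP63 2 were the higher, the order of the GC split. KRT7, typical of glandular epithelium, was at 258 and 109.5 against 337 and 757 (1.58), with 1 siTP63 value not far above the higher siCont value. KRT86, a hair keratin with near-identical copies whose reads may be shared with KRT81, was at 17.8 and 14.1 against 54.8 and 99.8 (2.15). KRT8 was at 79653 and 50898 against 23883 and 41026 (-1.02), and its partner KRT18 at 55569 and 30941 against 20117 and 35506 (-0.63), the latter with overlapping groups.

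Several genes that anchor cells to the basement membrane were lower. Of 12 hemidesmosome and laminin-332 genes, which fasten basal cells to the matrix, 6 were lower in all 4 pairs and 1 higher (median -0.39, or -0.59 without siTP63 2). COL7A1, the anchoring fibril collagen, was at 1596 and 1482 in siCont and 382 and 632 in siTP63 (-1.64). ITGB4, the integrin beta chain of hemidesmosomes, was at 2818 and 2265 against 1013 and 1099 (-1.26), and its partner ITGA6 at 1028 and 1445 against 757 and 514 (-0.97). COL17A1, a transmembrane collagen of the same structure, was at 1093 and 1197 against 585 and 482 (-1.11), and DST, the plakin that links it to keratin, at 1662 and 1790.4 against 1121 and 856 (-0.82). All 5 had both siTP63 values below both siCont values. Of 11 desmosome genes, 0 were lower and 0 higher in all 4 pairs. Their median of 0.04 ranged from -0.15 to 0.25 when 1 library was left out. The difference between these lists was not tested.

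Among 16 squamous transcription factors, 6 were higher in all 4 pairs (GRHL2, OVOL1, OVOL2, TFAP2C, RUNX1 and ELF3) and 1, SOX15, was lower. Their median was 0.30, but -0.00078 without siCont 1, 0.20 without siTP63 1 and 0.53 without siTP63 2. ELF3, an epithelial ETS factor, was at 1182 and 1119 in siCont and 2742 and 2744 in siTP63 (1.25 ± 0.18). RUNX1 was at 855 and 639.6 against 1286 and 1517 (0.92), and TFAP2C at 359 and 406 against 750.4 and 578 (0.78). Each of these had no overlap between groups. Of 12 tested cornified envelope and suprabasal genes, 2 (16.7%) were higher and 1 (8.33%) lower in all 4 pairs. These shares were not far from those of all tested genes, and the list ranged from -1.79 to 1.55 (median 0.27). The higher ones were SCEL (sciellin, an envelope precursor) at 89.1 and 128 against 376 and 262 (1.55) and PPL (periplakin, an envelope scaffold) at 1573 and 1691 against 3341 and 2370.3 (0.79). Of 10 tested cadherin and mesenchymal-transition genes, VIM, FN1, SNAI2 and TWIST1 were lower in all 4 pairs and 0 were higher (median -0.25, but -0.43 without siTP63 1, -0.38 without siCont 1 and -0.16 without siCont 2). FN1, fibronectin, was at 808 and 881 against 392 and 273 (-1.36), and SNAI2, a repressor of E-cadherin, at 346 and 406 against 204 and 165 (-1.03). CDH1, E-cadherin itself, was at 3044 and 3704 against 3770.2 and 2535, with overlapping groups.

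Genes of DNA synthesis and cell division were lower nearly throughout. Of 43 DNA replication genes, 34 were lower in all 4 pairs and 0 higher (median -0.75, range -1.46 to -0.12), and DESeq2 called 15 lower. CDC45, a subunit of the replicative helicase, was at 1868 and 1699 in siCont and 653 and 853 in siTP63 (-1.25). GINS1, another helicase subunit, was at 961 and 978 against 486 and 478 (-1.01). RFC4, of the clamp loader, was at 3074 and 2825 against 1305 and 1499 (-1.07). In these 3 genes the libraries of a group lay close together and the groups stood well apart. TK1, thymidine kinase, was at 6725 and 5076 against 1642 and 2756 (-1.46), whereas POLD2, a subunit of polymerase delta, was at 13312 and 8796 against 6043 and 9624 and overlapped.

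Of 45 mitosis and spindle genes, 37 were lower in all 4 pairs and 0 higher (median -0.81, range -1.67 to -0.21), with 16 called lower by DESeq2. BIRC5 (survivin, of the chromosomal passenger complex) was at 5677 and 4464 against 1330.4 and 1881 (-1.67 ± 0.26). SPC25, of the outer kinetochore, was at 607 and 670.2 against 309.96 and 307 (-1.04), and CENPA, the centromeric histone H3, at 762 and 837 against 405 and 397 (-0.99). CCNB1, cyclin B1, was at 8384 and 8861 against 4459 and 4408 (-0.96), with close values within each group. ANLN and KIF23, which act in cytokinesis, overlapped: ANLN was at 2694 and 4657 against 3796 and 1778. Of 28 recombination and Fanconi repair genes, 20 were lower in all 4 pairs and 0 higher (median -0.78), with 7 called lower by DESeq2. XRCC2, of homologous recombination, was at 99.5 and 135 against 39.1 and 29.3 (-1.75), EXO1, an exonuclease, at 781 and 836 against 364 and 314 (-1.25), and FANCI, which pairs with FANCD2, at 2218 and 2338 against 1037 and 1075 (-1.11).

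The regulators of G1 were less uniform. Of 24, CCND2, CDK2, CDK4, CDK6, CDKN3, RB1, E2F1 and E2F7 were lower in all 4 pairs and CDKN2B, a CDK4/6 inhibitor, was higher (median -0.44). CDK6 was at 1106 and 1205 in siCont and 499 and 508 in siTP63 (-1.19), and CCND2, cyclin D2, at 6167 and 5553 against 2585 and 2764 (-1.13). CDKN3, a phosphatase that acts on CDKs, was at 1388 and 1285 against 305 and 411 (-1.91). CDKN2A, the p16 and p14ARF locus, was at 5337 and 3457 against 4660.2 and 7332, with overlap. Of 23 tested p53 family members and p53 targets, 8 were lower in all 4 pairs, TP63 and TP73 among them, and 3 were higher, BBC3 among them (median -0.27). SFN (14-3-3 sigma, a G2 arrest protein) was at 23108 and 11507 against 3026 and 6532 (-1.87 ± 0.50), and FDXR, ferredoxin reductase, at 1917 and 1157 against 269 and 634 (-1.85). Both were lowest in siTP63 1 and spread widely within groups.

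The promoters of these lists were examined because their members moved together. The share in a list depends on which genes it holds and not on their values here. The windows did not cover every chromosome. Promoter windows (250 bases before to 50 after the start, RefSeq, GRCh38.p14) were searched on both strands for TTTNGCGC, a form of the E2F site, and for TTTGAA, a form of the CHR element found in genes of mitosis. TTTNGCGC was present in 14 of 36 DNA replication promoters (38.9%), against 1.83% of all 27305 windows, 3.10% of the 9695 tested genes with a window, 3.58% of those lower in all 4 pairs and 2.33% of those higher. TTTGAA was present in 26 of 38 mitosis promoters (68.4%), against 15.4% of all windows, 9.32% of tested genes, 12.7% of those lower and 8.10% of those higher. Examples follow, 5′ to 3′ in the direction of the gene, with the match in capitals; the GINS1 match is the E2F form on the opposite strand.
GINS1, chr20:25407653-25407710, plus strand: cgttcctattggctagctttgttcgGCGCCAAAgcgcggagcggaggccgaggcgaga
CENPA, chr2:26786013-26786068, plus strand: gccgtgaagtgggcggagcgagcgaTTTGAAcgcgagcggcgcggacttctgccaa
SPC25, chr2:168890403-168890458, minus strand: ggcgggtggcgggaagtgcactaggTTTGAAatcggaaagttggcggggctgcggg
The matches describe these windows and were not measured as bound sites.

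Sterol synthesis genes were also mostly lower. Of 29 tested genes of cholesterol and fatty acid synthesis, 18 were lower in all 4 pairs and 0 higher (median -0.74, range -1.23 to 0.21), and DESeq2 called 6 lower. They included enzymes of the mevalonate pathway (HMGCS1, MVK, MVD, IDI1, FDPS), the steps from squalene on (FDFT1, SQLE, LSS, CYP51A1, MSMO1, HSD17B7) and the fatty acid enzymes ACLY, FASN, SCD and FADS1. INSIG1, a sterol-regulated inhibitor of the pathway, was at 2505 and 2113 in siCont and 1097 and 1023 in siTP63 (-1.12). MSMO1, methylsterol monooxygenase, was at 1437 and 1232 against 729 and 653 (-0.95), and HSD17B7 at 371 and 273 against 129 and 142 (-1.23). FADS1, a fatty acid desaturase, was at 414 and 435 against 216 and 166 (-1.16). None of these 4 overlapped. The sterol element form TCACNCCAC was present in 1 of 23 promoters of the list, that of SREBF2, against 1.01% of tested genes. The same list had a median of -0.19 in KYSE180 and -0.18 in TE6, and 0 and 1 of its 29 genes differed from those lines in the limma contrasts described below.

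Smaller shares of the stress and metabolic lists were lower. Of 25 ER chaperone and unfolded protein response genes, 7 were lower and 1 higher (median -0.28, or -0.17 without siTP63 2). HSPA5 (BiP, the main ER chaperone) was at 14277 and 12977 against 8210.2 and 7968 (-0.75), and HSP90B1, another ER chaperone, at 17746 and 16744 against 10884 and 12450.5 (-0.57). Of 32 glycolysis and hypoxia genes, 10 were lower and 1 higher (median -0.37): CA9, carbonic anhydrase 9, was at 631 and 353 against 118 and 193 (-1.64), and NDRG1, a hypoxia-induced gene, at 595 and 505 against 247 and 236 (-1.18). Of 30 genes of the ATF4 amino acid response, 9 were higher and 1 lower (median 0.24, or 0.38 without siCont 1). SLC6A9, a glycine transporter, was at 163 and 165 against 437 and 459 (1.44), while SLC7A11, the cystine transporter, was the one lower, at 342 and 289 against 105 and 157 (-1.28).

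Inflammatory genes were higher in siTP63. Of 31 symbols listed, 17 were tested, and 14 of them were higher in all 4 pairs and 0 lower, and DESeq2 called 9 higher. The median was 1.82 over these 17, 0.87 with no filter on low values and 1.22 at a mean of at least 100. The 14 were IL1A, IL1B, IL1RN, IL6, IL32, LIF, CSF1, CXCL2, CXCL8, CCL5, CCL20, TNF, TNFAIP3 and NFKBIA, and the 3 others were IL6R, IL11 and IL18. Genes near the floor can pass the filter only through the group where they are high, so the count describes tested genes and not all 31.

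IL6, the pleiotropic inflammatory cytokine, was at 339 and 144 in siCont and 2178 and 2339.7 in siTP63 (3.35 ± 0.41, limma adjusted p = 0.0848, DESeq2 adjusted p = 3.83e-14), a 9.37-fold ratio of means. CXCL8, the neutrophil chemoattractant, was at 53.5 and 43.6 against 293 and 205 (2.32 ± 0.30, limma adjusted p = 0.097). CCL5, a chemoattractant of T cells and monocytes, was at 5.94 and 24.7 against 214 and 295 (4.24 ± 0.64, limma adjusted p = 0.111). In each of the 3 both siTP63 libraries stood several-fold above the higher siCont library. CCL20, a CCR6 ligand, was at 5.94 and 0 against 82.3 and 82.5, and because 1 siCont library held no read its fold depends on the pseudocount. IL32, an inducer of other cytokines, was at 74.2 and 57.7 against 329.9 and 496 (2.61). TNFAIP2, a TNF-induced gene, was at 1210.2 and 1123 against 7781 and 6473 (2.61 ± 0.21, limma adjusted p = 0.08), and TRAF1, a TNF receptor adaptor, at 53.5 and 47.1 against 243 and 221 (2.19).

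The level of some of these genes in other KYSE150 control cells bears on the siCont baseline. In the 3 control libraries of the KYSE150 overexpression experiment, whose table was normalised separately and whose control is a different one, CCL5 was at 186, 132 and 139, IL6 at 499.6, 760.2 and 637, and CXCL8 at 99.4, 129 and 132. These values lay above both siCont and below both siTP63 values for all 3 genes. TRAF1 was at 245, 319 and 279.5, above both siTP63 values, and CCL20 at 8.13, 7.55 and 9.87. Levels across separately normalised tables were set side by side only. TP63 was at 1675, 1560.1 and 1344 in those libraries.

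The promoters of the cytokine list held the letters GGANTTTCC, a form of the NF-kappaB site, in 6 of 13 windows (46.2%: IL6, IL32, CXCL2, CXCL8, TNFAIP3 and NFKBIA). The share was 1.64% of all windows, 1.61% of tested genes, 2.73% of those higher in all 4 pairs and 1.42% of those lower. The stretches of the cytokines with values above are shown with the match in capitals.
IL6, chr7:22727103-22727161, plus strand: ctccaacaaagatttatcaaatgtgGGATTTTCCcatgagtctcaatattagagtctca
CXCL8, chr4:73740453-73740511, plus strand: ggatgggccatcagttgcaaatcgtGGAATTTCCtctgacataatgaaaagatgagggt
IL32, chr16:3065310-3065368, plus strand: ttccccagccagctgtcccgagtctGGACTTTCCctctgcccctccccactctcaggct
Whether a factor bound these windows was not measured in these files.

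Interferon-response and antigen presentation genes were higher by less. Of 28 tested interferon-response genes, 15 were higher in all 4 pairs and 0 lower (median 0.94), with 5 called higher by DESeq2. IRF1, a transcription factor of the interferon response, was at 526 and 488 in siCont and 1225 and 1236 in siTP63 (1.28 ± 0.18). DDX58, the RNA sensor RIG-I, was at 68.3 and 78.9 against 175 and 188 (1.29), and IRF9, of the interferon-activated ISGF3 complex, at 307 and 233 against 532 and 556 (1.02). These 3 had close replicates and no overlap. ISG15, a ubiquitin-like protein, was at 1544 and 1115 against 1364 and 3866, with overlap. Of 16 genes of MHC class I presentation, 8 were higher (B2M, TAP1, TAPBP, PSMB8, PSMB9, ERAP1, ERAP2 and NLRC5) and CALR was lower. The median was 0.54, but 0.29 without siCont 2 and 0.35 without siTP63 2. By library this list deviated by -0.06 and -0.39 in siCont and 0.07 and 0.42 in siTP63. Within groups siCont 1 and siTP63 2 were the higher, the order of the GC split. PSMB9, an immunoproteasome subunit, was at 347 and 219 against 599.97 and 981 (1.47), NLRC5, the class I transactivator, at 263 and 278 against 538 and 469.8 (0.89), and ERAP2, a peptide-trimming enzyme, at 128 and 132 against 244 and 269 (0.98).

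Junction and signalling lists held smaller numbers of such genes. Of 13 tight junction genes, 3 were higher and 0 lower (median 0.40, or 0.19 without siTP63 1), among them TJP3, a scaffold, at 337 and 196 against 830.2 and 868 (1.72) and CLDN3, a claudin, at 40.1 and 23.6 against 102 and 206 (2.20). Of 24 TGF-beta and BMP genes 7 were higher and 3 lower, and of 17 YAP, TEAD and VGLL genes 5 were higher and 2 lower. VGLL1, a TEAD cofactor, was at 35.6 and 10.6 against 134 and 129 (2.68), and TEAD2 at 789.97 and 664 against 383 and 369.99 (-0.94). Of 15 Notch pathway genes 3 were lower and 1 higher, with NRARP, a Notch feedback inhibitor, at 808 and 792 against 288 and 318 (-1.40). Of 17 Wnt ligands and antagonists 6 were lower and 4 higher, of 16 AP-1 and immediate early genes 2 were lower and 4 higher, and of 15 BCL2 family genes 1 was lower and 3 higher, with BMF, a BH3-only protein, at 38.6 and 25.9 against 126 and 97.2 (1.78).

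Translation and respiration lists showed no member-wide shift in KYSE150. Of 86 cytoplasmic ribosomal protein genes, 1 was lower and 0 higher in all 4 pairs (median 0.01, from -0.37 to 0.37 without 1 library), and of 78 nuclear-encoded respiratory chain genes 0 were lower and 0 higher (median 0.04, from -0.24 to 0.32). Both lists followed the split of libraries by GC content described above, with medians on opposite sides of 0 for the libraries of each group. The 34 tested replication-dependent histone genes had 3 lower and 4 higher. They followed the same split, with median deviations of 1.29 and -0.64 in siCont and -0.74 and 0.27 in siTP63. Their median of -0.70 ranged from -1.64 to 0.55 when 1 library was left out, so no direction is given. The BET genes did not separate: BRD2 was at 1614 and 1715 against 1797 and 1465, and BRD3 at 298 and 306 against 338 and 322. BRDT, the testis-specific member that the wider study targets, had 41 and 7 reads in siCont and 0 and 8 in siTP63, corresponding to 60.9, 8.25, 0 and 10.6 (limma adjusted p = 0.36), so no difference was detectable at this depth.

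Single genes with a mean of at least 100 over the 4 libraries were ranked by their smallest pairwise difference, here called the gap. The gap on the lower side was widest for KRT14, given above, and next for PPME1, a methylesterase of protein phosphatase 2A, at 13988 and 12952 in siCont and 2323 and 1779 in siTP63 (-2.73 ± 0.24, limma adjusted p = 0.08, DESeq2 adjusted p = 2.12e-16). DKK3, a secreted protein of the Dickkopf family, was at 701 and 775 against 156 and 146 (-2.28 ± 0.20), LSM6, of the U6 snRNA-binding complex, at 561 and 398 against 61.5 and 95.8 (-2.61 ± 0.32), and CDCA4 at 1136 and 1209.7 against 281 and 357 (-1.89). FEZ1, a kinesin adaptor, was at 557 and 431 against 111 and 109 (-2.15), and LRP4, an agrin receptor, at 219.8 and 258 against 57.3 and 55.9 (-2.05). LINC01503, a long non-coding RNA, was at 487 and 249.7 against 41.5 and 81.2 (-2.56). The ranking picks genes whose groups stand apart, so the separation of these genes is not a further result. LINC01503 and LSM6 were the most spread within groups.

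On the higher side, among genes with a mean of at least 100, the gap was widest for CCL5, then C2orf54, IL6 and ERP27. C2orf54 was at 28.2 and 33 against 238 and 299 (3.09), ERP27, an ER protein, at 116 and 93.1 against 902 and 732 (2.96) and SULT2B1, the cholesterol sulfotransferase of differentiating keratinocytes, at 35.6 and 29.4 against 204 and 299 (2.89). SLPI, a secreted protease inhibitor, was at 168 and 131 against 869 and 1619.7 (2.99), and CARD14, a keratinocyte scaffold for NF-kappaB signalling, at 40.1 and 41.2 against 174 and 158 (2.002). S100A9, a subunit of calprotectin, was at 50.5 and 28.3 against 188 and 310.1 (2.64 ± 0.40). All had both siTP63 values several times the higher siCont value, which ranking by the gap selects for.

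The response was then set beside that of KYSE180 and TE6, which do not share libraries with KYSE150. limma called 25.7% of tested genes lower and 23.6% higher in KYSE180, and 20.6% lower and 18.3% higher in TE6, so their calls cover a far larger share of genes than DESeq2's in KYSE150. Of 11506 genes tested in all 3 lines, 1577 were lower in all 4 KYSE150 pairs. Of these, 862 were also called lower in KYSE180 (54.7% of the KYSE150 genes, 26.9% of the 3210 KYSE180 genes), 789 in TE6 (50.03% and 32.7% of 2412) and 457 in both (29.0% of the KYSE150 genes, 61.4% of the 744 called lower in both lines). Among 1417 higher genes, 698 were shared with KYSE180 (49.3% and 28.3%), 573 with TE6 (40.4% and 28.6%) and 313 with both (22.1% and 54.7% of 572). Of the lower genes, 89 were called higher in KYSE180, 68 in TE6 and 12 in both.

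Proliferation lists had medians of one sign in the 3 lines. The DNA replication median was -0.75 in KYSE150, -1.16 in KYSE180 and -0.67 in TE6, the mitosis median -0.81, -1.03 and -1.44, and the recombination median -0.78, -0.76 and -0.77. Basal keratins had medians of -1.13, -1.06 and -1.91. By contrast, the ribosomal protein median was 0.01 in KYSE150, -1.28 in KYSE180 and 0.41 in TE6, and the respiratory chain median 0.04, -0.99 and 0.27. The cytokine median was 1.82 (0.87 with no filter on low values), 0.63 and 0.08, and the interferon median 0.94, 1.74 and 1.23. The number of tested members differed between lines.

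**Figure D4:**
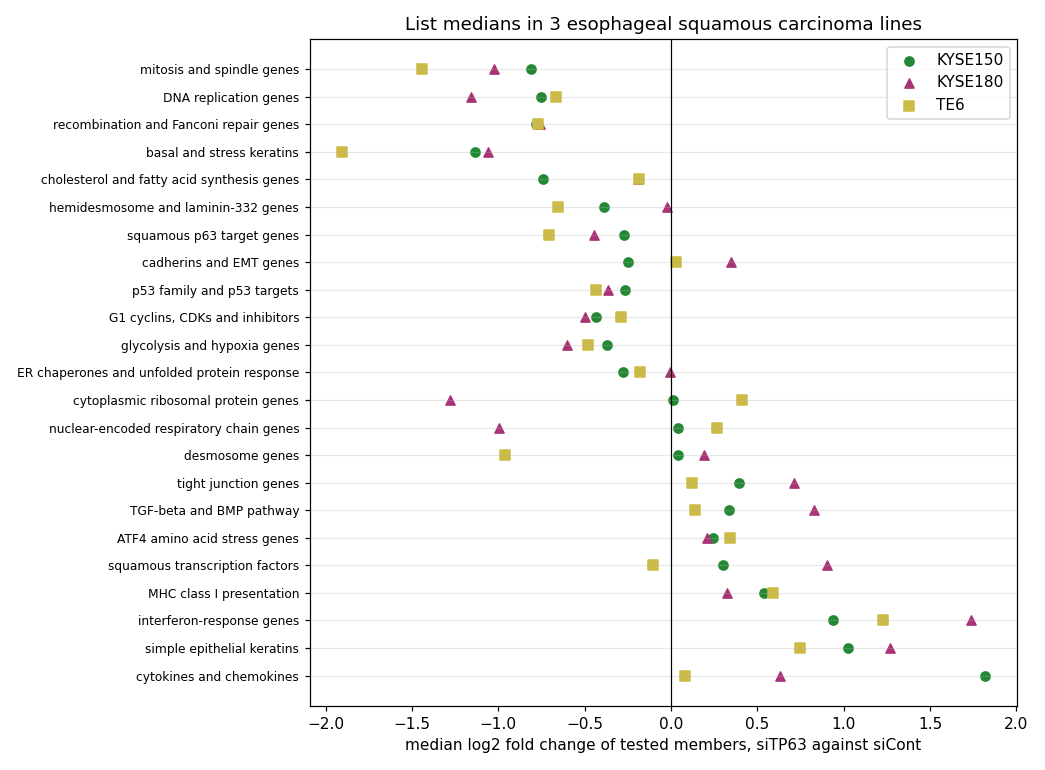
Median log2 fold change (siTP63 against siCont) of the tested members of each list in KYSE150 (circles), KYSE180 (triangles) and TE6 (squares). The 3 lines lie together for recombination genes (-0.78, -0.76 and -0.77) and apart for cytokines (1.82, 0.63 and 0.08; KYSE150 has 0.87 with no filter on low values) and ribosomal protein genes (0.01, -1.28 and 0.41).

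The difference between fold changes was tested gene by gene as a limma contrast (adjusted p under 0.05, no fold limit). KYSE150 differed from KYSE180 for 193 of 11891 genes (1.62%, 92 of them positive) and from TE6 for 449 of 11645 (3.86%, 193 negative and 256 positive). These counts moved with single libraries: against KYSE180 they were 65 without siCont 1, 25 without siCont 2 and 2932 without siTP63 1, and against TE6 203 without siCont 1 and 3012 without siTP63 2. With the replicate number as a block they were 0 and 61, though same-numbered KYSE150 libraries did not deviate together (correlation -0.70). Against TE6, 7 of 11 cytokine genes were positive and 0 negative, against KYSE180 2 of 10. Against KYSE180, 7 of 28 interferon-response genes were negative and 0 positive. Of 11 desmosome genes, 4 were positive against TE6, where the list's median was -0.96.

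Several of the named genes differed between lines in size or sign. TP63 itself had a log2 fold change of -2.34 in KYSE150, -1.70 in KYSE180 and -4.45 in TE6. Its difference was 2.10 against TE6, and -0.64 against KYSE180, which did not pass (limma contrast adjusted p = 0.211). KRT14, KRT5 and FAT2 were also less reduced than in TE6, by 1.95, 2.02 and 4.65. FAT2 had -0.64 in KYSE150, -2.43 in KYSE180 and -5.30 in TE6. PPME1 had -2.73, -0.25 and 0.10 in the 3 lines, and the difference passed against both. FEZ1 had -2.15, 0.70 and -0.08, and S100A9 2.64, -2.24 and -2.06, again passing against both, and FN1 -1.36, 0.85 and 1.32. Control levels also differed, in separately normalised tables. PPME1 siCont values were 13988 and 12952 in KYSE150, 829 and 1157 in KYSE180 and 806 and 790 in TE6. Those of FEZ1 were 557 and 431, 14.2 and 10.3, and 16.7 and 14.6, the last 2 lines lying near the filter of 10. The part of the control level in these differences was not tested. CXCL8 had 2.32 in KYSE150, 1.52 in KYSE180 and -1.27 in TE6, with a difference of 3.59 against TE6. IL6 had 3.35 and 0.44 in KYSE150 and TE6 (difference 2.91) and was not tested in KYSE180. The PPME1 and S100A9 differences kept passing without each library in turn, against both lines, whereas FEZ1 passed in 2 of 4 such fits against KYSE180. With the replicate block no difference from KYSE180 passed. The block kept PPME1, S100A9, FN1, CXCL8, TP63, KRT14, KRT5 and FAT2 against TE6 but not IL6 or FEZ1. Because the replicate numbers do not pair the KYSE150 libraries, passing or failing with this block does not settle a difference.

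The seed of each siRNA was finally compared with annotated 3' UTRs, since a 7-base match can lower transcripts other than the target. Among 11353 tested genes with a UTR, the match of TP63 #8 (TACAATT) was present in 14.5%, in 335 (21.0%) of the 1594 lower in all 4 pairs and in 141 (9.92%) of the 1422 higher. The match of TP63 #5 was present in 9.46% of all, 8.78% of the lower and 8.02% of the higher genes, and that of the non-targeting siRNA in 0.802%, 0.690% and 1.34%. Median UTR length was 1590 bases for all genes, 1503 for the lower and 1533 for the higher, and median UTR GC content 43.1%, 42.2% and 46.4%. Within the shortest, middle and longest UTRs (equal groups of genes), the TP63 #8 match was present in 6.27%, 20.3% and 39.0% of lower genes against 1.29%, 9.11% and 20% of higher genes. By UTR GC content, from lowest to highest, the shares were 35.4%, 20.0% and 4.94% of lower genes against 17.8%, 13.3% and 2.14% of higher genes. The lower genes had the larger share in each of these 6 groups. The median log2 fold change was -0.13 for genes with the TP63 #8 match and 0.00 for the rest.

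**Figure D5:**
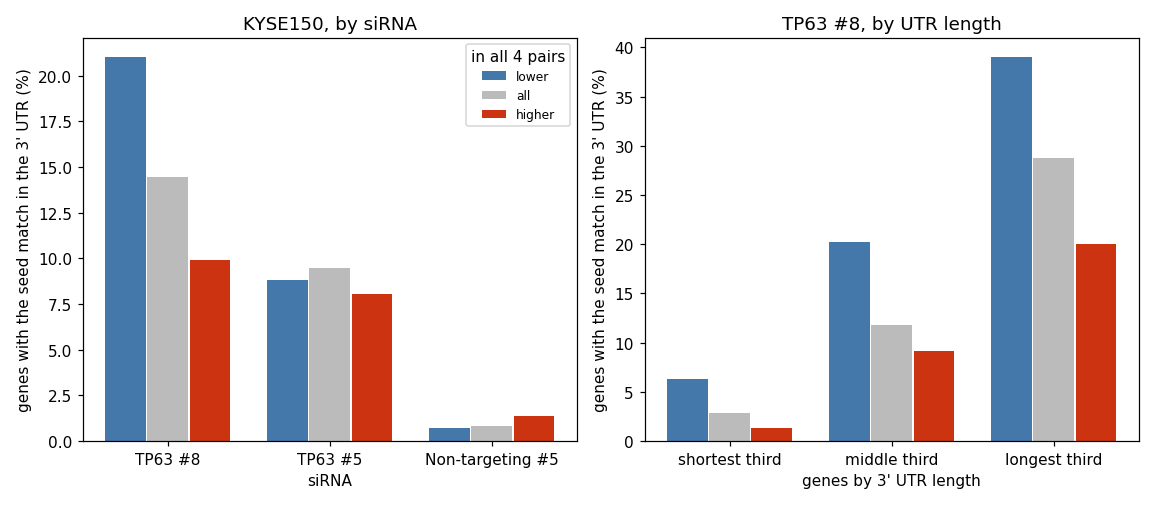
Percent of genes whose 3' UTR holds the 7-base seed match, for all tested genes and for those lower or higher in all 4 KYSE150 pairs. Left, by siRNA (14.5%, 21.0% and 9.92% for TP63 #8); right, TP63 #8 by UTR length, where the longest UTRs give 39.0% of lower and 20% of higher genes.

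Against 14.5% of all tested genes with a UTR, this match was present in 5 of 43 DNA replication genes (11.6%), 4 of 45 mitosis genes (8.89%), 2 of 29 sterol synthesis genes (6.90%), 4 of 28 interferon-response genes (14.3%) and 0 of 17 cytokine genes. The replication median was -1.01 for members with the match and -0.73 for those without, and the mitosis median -1.21 and -0.80. The recombination median was -0.90 (2 genes) and -0.76, and the interferon median 0.36 and 0.96. The sterol median went the other way, -0.36 with the match and -0.74 without. Each median with the match rests on at most 5 genes. Of the genes with the widest gaps, LSM6 held 2 matches, DKK3 and CDCA4 held 1 each, and PPME1 held 0. In TE6 and KYSE180 the lower and higher genes were the limma calls and not genes separated in all 4 pairs, so their shares are not like for like with KYSE150. In TE6 the share was 26.5% of lower and 7.0% of higher genes, and in KYSE180 10.3% and 17.3%. Median UTR lengths were 2162.5 and 1003 bases in TE6 and 851 and 2039 in KYSE180. Within the shortest, middle and longest UTRs, the TE6 shares were 9.19%, 21.1% and 39.5% of lower against 1.42%, 6.45% and 20.3% of higher genes. The KYSE180 shares were 3.30%, 10.9% and 27.4% against 3.11%, 11.8% and 29.3%. The lower genes thus had the larger share in every length group in TE6, and in KYSE180 the shares lay close together. Which siRNA was used is not stated, and the part of the seed in any gene's difference was not tested.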

How the data were processed

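RNA of KYSE150 cells harvested 48 hours after transfection was sequenced. The study names a TruSeq RNA library kit and calls its BRDT knockdown profiling mRNA-seq. The table deposited by the authors holds a normalised signal: reads per gene scaled by each library's size factor, which was set within each experiment. The submitters' processing notes name STAR 2.6.0, HTSeq 0.11.2, DESeq2 1.24.0 and hg38. The gene annotation and the use of strand in counting are not given in the sources used here, so overlapping, antisense and near-identical genes are uncertain. Every value came out as a whole number of reads after rescaling (100% within 0.01 of a read), and the reads so recovered gave the depths. A count of 0 allows up to 3 reads, which covers counting error only. In the tables used, 3 columns of values that belong to no comparison here were not used, and one KYSE180 knockdown table was not used.

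limma 3.58.1 (R 4.3.3, eBayes with trend) was fitted to log2(value + 1) of genes with a mean of at least 10. Fold changes on this scale understate those of low genes. A call needed a Benjamini-Hochberg adjusted p below 0.05 together with a log2 change of 0.5 or more in size. The 3 TE6 groups (siCont, siBRDT and siTP63) shared 1 fit, and all 3 entered the filter and the contrasts with TE6. Differences between lines were limma contrasts of fold changes, each within its own table. Alternatives were the count tests of edgeR 4.0.16 and of DESeq2 1.42.0 (240 of whose adjusted p-values were NA and stayed so), pseudocount 0.1, no filter, a mean of at least 100, upper quartile rescaling, removal of a length and GC trend per library, the replicate number as a block and each library left out. Same-numbered libraries did not deviate together (correlation -0.70), so the numbers do not pair them. Fits were tested on simulated data. Named genes were the 12 lower and 12 higher with a mean of at least 100 and the widest gap between groups, up to 4 separated and 2 overlapping genes per list with a mean of at least 30, 4 genes per sign of each difference between lines, and TP63, KRT14, KRT5, FAT2, PTHLH, BRDT, BRD2 and BRD3, of which the text gives most. A few genes that the rule or the lists hold are not reported here. The members, lists and tests were chosen with earlier results of these data known. Transcript length, GC content and UTRs came from GENCODE release 44 (24545 of the symbols, 92.7%), promoters from RefSeq (GRCh38.p14) and siRNA sequences from the study's supplement. Scripts used Python 3.11.15 with numpy 2.4.6, pandas 2.3.3 and matplotlib 3.10.9.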

Additional observations from a re-analysis of the deposited data

Results flagged for a closer look

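For 31 of the named genes the log2 fold change under siTP63 differed between KYSE150 and another line in a limma contrast of the fold changes (adjusted p under 0.05), and this test of the difference is what flagged them. Differences are given as KYSE150 minus the other line, on the log2 scale, with the adjusted p between 0.0112 and 0.0490 against KYSE180 and between 4.78e-05 and 0.0434 against TE6.

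Against KYSE180 there were 17 such genes. Of genes higher under siTP63 in all 4 KYSE150 pairs, the difference was 4.88 for S100A9, 2.99 for CTXN1, 2.59 for SLPI, 1.46 for TNFAIP2, -1.86 for IRF9 and -2.61 for KRT80. Of genes lower in all 4 pairs, it was positive, a smaller reduction than in KYSE180, for DKK3 (2.44), FAT2 (1.79) and NRG1 (1.70). It was negative for FAM102B (-3.21), CPED1 (-2.95), FEZ1 (-2.84), PLCB4 (-2.82), PPME1 (-2.47), FN1 (-2.21), COL17A1 (-1.63) and GALNT18 (-1.20). The fold changes of FAM102B were -1.43 in KYSE150 and 1.78 in KYSE180, those of CPED1 -1.41 and 1.54, and those of PLCB4 -1.49 and 1.33. All 17 kept their sign without each KYSE150 library in turn, and 0 passed with the replicate block. The genes were flagged by this same test on all the libraries, and some were named for a large difference. The kept sign is therefore largely set by the choice of genes and is not a further check.

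Against TE6 there were 24. The inflammatory genes CCL5 (4.06), CXCL8 (3.59), IL6 (2.91) and TNFAIP2 (2.64) were positive, as were S100A9 (4.70), SLPI (2.36), CARD14 (1.74) and CELSR3 (1.09). The p63-related genes FAT2 (4.65), TP63 (2.10), KRT5 (2.02), KRT14 (1.95) and HAS3 (1.85), with SNAI2 (1.54) and DKK3 (1.21), were positive, that is, less reduced in KYSE150. Negative differences were those of KIAA1324 (-3.19), VGLL1 (-3.03), PPME1 (-2.83), SAMD11 (-2.71), FN1 (-2.68), FEZ1 (-2.06), KRT80 (-1.76), CHAC1 (-1.63) and PLCB4 (-1.55). All 24 kept their sign without each KYSE150 library in turn, which is again largely set by the choice of genes, and 13 passed with the replicate block. The CARD14 difference, from 1.67 to 1.80 in the fits without a library, did not pass with the replicate block.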

How the results depend on the processing

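The design has 2 libraries per group, and the main count of 0 calls was sensitive to the spread estimate. Calls lower and higher were 18 and 27 with no filter on low values, 463 and 303 with the length and GC trend removed, 48 and 89 with the replicate block, 259 and 202 with DESeq2 and, in a pairing of crossed numbers added after seeing the data, 1774 and 1626. Leaving out 1 library gave 77 to 177 and 108 to 182. The cause of these differences was not tested. Genes lower in all 4 pairs were 3029 without the fold limit (2051 to 2442 without 1 library, which leaves fewer pairs to satisfy). Genes higher were 2567 with no filter, 970 at a mean of at least 100, 2997 without the fold limit and 2003 to 2274 without 1 library. TP63 had -2.34 with no filter (limma adjusted p = 0.0274), -2.32 with the trend removed (0.0174), -2.34 with the replicate block (3.15e-05), -2.31 with DESeq2 and -2.63 to -2.06 without 1 library.

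Differences from KYSE180 and TE6 numbered 104 and 235 at a mean of at least 100, 1221 and 1304 with the trend removed, 0 and 61 with the replicate block, and 25 to 2932 and 203 to 3012 without 1 library. Genes higher in all 3 lines numbered 142 at a mean of at least 100. The 130 list counts stayed within 1.5 times. Of 130 medians of 13 lists 0 reversed, but of all 41 lists with at least 6 tested genes 11 changed sign without 1 library, those of desmosomes, squamous transcription factors, ribosomal proteins, the respiratory chain and histones among them. With no filter the medians were -0.67 for cholesterol, -0.70 for basal keratins, 0.87 for cytokines and 0.73 for interferon genes, and at a mean of at least 100 they were 1.22 and 0.81 for the last pair. The G1 median was -0.40 after upper quartile rescaling and with the trend removed. Without 1 library medians ranged from -0.88 to -0.78 for replication, -0.97 to -0.63 for mitosis and -0.90 to -0.60 for recombination. They ranged from -0.75 to -0.58 for cholesterol, -1.13 to -1.02 for basal keratins and -0.59 to -0.34 for hemidesmosomes. For p63 targets the range was -0.40 to -0.23, for glycolysis -0.42 to -0.26 and for G1 -0.40 to -0.34. For cytokines it was 1.59 to 1.78, for interferon genes 0.73 to 0.99 and for MHC class I 0.29 to 0.70. For the simple keratin list, which includes hair keratin genes, it was 0.79 to 1.26.

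Of 1335 values of 112 named genes under alternatives, 904 kept direction and side of the threshold, 422 kept direction and newly passed it (80 genes with DESeq2, 79 with the trend removed, 41 with the block, 0 with edgeR) and 9 reversed, all of genes with overlapping groups. Without 1 library BRD2 ranged from -0.18 to 0.11 (0.0075 without siCont 2), KRT17 reached 0.18 without siCont 1 and 0.16 without siTP63 1, KRT16 ranged from -0.42 (without siCont 2; -0.31 without siTP63 2) to 0.78, ANLN ranged from -0.99 to 0.10 (without siTP63 2) and CDH1 from -0.41 to 0.17 (without siTP63 2; 0.02 without siCont 2). Same-numbered libraries deviated in opposite directions (correlation -0.70).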

Other observations

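Matrix, growth factor and cytoskeletal lists were close to the share of all tested genes in KYSE150 or split between directions. Of 16 collagen chains 5 were lower and 4 higher in all 4 pairs (median log2 fold change 0.03), of 12 integrins 3 were lower and 2 higher (-0.05), and of 20 matrix proteases and inhibitors 3 were lower and 3 higher (0.18). Of 11 EGF receptors and ligands 1 was lower and 2 higher (0.12), of 22 actin and tropomyosin genes 4 were lower and 0 higher (-0.11), of 27 NRF2 targets 7 were lower and 1 higher (-0.18), and of 34 autophagy and lysosome genes 1 was lower and 4 higher (0.12). Without 1 library the integrin median ranged from -0.16 to 0.03, the EGF median from -0.059 to 0.24 and the protease median from 0.015 to 0.24. Of the 6 tested FAT, DCHS and CELSR cadherins, FAT2 was lower and CELSR3 higher, the latter at 72.8 and 57.7 in siCont and 209 and 206 in siTP63 (1.66).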
